A study of Mus musculus with 8 samples.

Results

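The myosin heavy chains of striated muscle were taken by gene symbol from the table of raw counts, as 8 of its 26667 genes, and set out by the stage or fibre type in which each chain is used. They were the embryonic chain Myh3, the perinatal chain Myh8, the slow chains Myh7, Myh7b and Myh6, and the fast chains Myh1, Myh2 and Myh4. Their RNA was measured in undifferentiated pleomorphic sarcomas (UPS) of the mouse hind limb, each a tumour with its own library. The KP group held 4 tumours, KP 5 to KP 8, and the KPH2 group held 4, KPH2 1 to KPH2 4. All animals, KP controls included, carried Trp53 fl/fl on a mixed 129/C57BL/6 background. KPH2 mice carried Epas1 fl/fl in addition, so that HIF-2α was lost where Cre acted. Tumours were started in male and female mice aged 8 weeks or older by injecting adenovirus that expresses Cre into hind limb muscle, and so recombination was limited to the infected cells. No Cre driver of a single cell type was used. The comparison asked which RNAs differ with HIF-2α loss in these sarcomas.

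RNA came from formalin-fixed, paraffin-embedded (FFPE) tumours, and total counts ran from 6463221 to 13155510 per library. KPH2 1 is shown apart, because the study left 1 knockout tumour out as a technical outlier and its normalized table of 7 tumours does not hold KPH2 1. Levels are given as CPM, read counts scaled to library size, on a TMM scale common to the 8 tumours. Epas1, the deleted gene, was at 59.2, 83.2, 86.9 and 84.1 CPM in KP 5 to KP 8, at 53.4, 37.7 and 42.5 CPM in KPH2 2 to KPH2 4 and at 32.6 CPM in KPH2 1. All KPH2 tumours lay below all KP tumours, with a log2 fold change of -0.81 ± 0.19 (SE) over 7 tumours and an adjusted p of 0.0742 by edgeR's quasi-likelihood test. Markers of mesenchymal tumour and stroma, 7 genes, had summed levels of 11484 to 35521 CPM in KP tumours and 14522 to 22457 CPM in KPH2 2 to KPH2 4. In KPH2 1 the sum was 23155 CPM. Fn1 was the highest of these genes in every tumour, while Thy1 was at 48.3 CPM in KPH2 2, so the sum does not stand for each marker.

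Myosin heavy chains are the motor proteins of the thick filament, and each muscle fibre is typed by the chain it makes. Developing limb muscle makes the embryonic and then the perinatal chain, and both are largely replaced by adult fast or slow chains after birth. Both return for a time in fibres that regenerate after injury, and they are used by pathologists to recognise newly formed muscle. The mouse gastrocnemius is a mainly fast muscle in which the 2B chain, Myh4, prevails.

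The coding sequences show where the chains can be told apart by RNA-seq and where they cannot. On GRCm38, 5 of the genes lie within 230.4 kb of chromosome 11, in the order Myh3, Myh2, Myh1, Myh4 and Myh8. Myh6 and Myh7 are neighbours on chromosome 14, and Myh7b is alone on chromosome 2. The stretch below is the 60 coding bases with the most differences among the chains, 49 of which vary, and it crosses an intron, so that each position spans 2 exons near the start of the gene. Capitals mark bases that differ from Myh4.
Myh3, chr11:67080178-67082316, plus strand: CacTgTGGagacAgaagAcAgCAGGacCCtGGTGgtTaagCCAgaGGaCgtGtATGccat
Myh8, chr11:67279042-67279924, plus strand: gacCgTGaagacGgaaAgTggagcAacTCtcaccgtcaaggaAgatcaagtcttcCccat
Myh7, chr14:54992349-54992697, minus strand: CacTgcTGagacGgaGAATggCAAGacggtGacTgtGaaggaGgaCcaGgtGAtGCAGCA
Myh7b, chr2:155613230-155613467, plus strand: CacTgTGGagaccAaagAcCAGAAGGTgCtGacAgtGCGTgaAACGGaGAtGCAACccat
Myh6, chr14:54964005-54965284, minus strand: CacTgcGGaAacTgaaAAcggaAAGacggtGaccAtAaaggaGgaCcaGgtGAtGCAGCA
Myh1, chr11:67202061-67202208, plus strand: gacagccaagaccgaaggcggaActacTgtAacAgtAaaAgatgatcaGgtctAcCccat
Myh2, chr11:67173295-67173459, plus strand: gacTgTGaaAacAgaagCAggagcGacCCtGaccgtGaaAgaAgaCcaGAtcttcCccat
Myh4, chr11:67240803-67240954, plus strand: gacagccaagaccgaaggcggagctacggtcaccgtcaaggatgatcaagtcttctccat
The perinatal chain Myh8 differed from Myh4 at 11 of these bases and Myh1 at 9, whereas the embryonic Myh3 differed at 29. Over the whole coding sequence Myh7 and Myh6 were 91.7% identical, Myh1 and Myh2 91.0%, and Myh1 and Myh4 90.1%. Myh3 was 80.2% identical to Myh1, and Myh7b shared at most 72.0% with any other chain. The authors counted unique alignments only, so reads from identical stretches were not assigned. Of all windows of 100 bases in the transcript, 11.2% in Myh7, 9.97% in Myh1 and 9.17% in Myh2 occur in another gene, against 1.15% in Myh3 and 0% in Myh7b. The window of 100 bases is a choice made here, and levels of a chain leave out the reads from its shared windows.

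The stretch upstream of the fast and perinatal chains is shown because their genes share a run that the embryonic gene lacks. Each window holds up to 250 bases before the annotated start, cut where an exon of the same gene begins, from RefSeq on GRCm38.p6, and capitals mark matches to the MEF2 consensus and a shared run of 14 bases.
Myh3, chr11:67078050-67078272, plus strand: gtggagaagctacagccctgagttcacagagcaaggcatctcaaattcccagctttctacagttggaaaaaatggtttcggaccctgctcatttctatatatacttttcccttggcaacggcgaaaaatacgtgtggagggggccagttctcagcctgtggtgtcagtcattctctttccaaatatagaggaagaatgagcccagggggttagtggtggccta
Myh8, chr11:67276874-67277123, plus strand: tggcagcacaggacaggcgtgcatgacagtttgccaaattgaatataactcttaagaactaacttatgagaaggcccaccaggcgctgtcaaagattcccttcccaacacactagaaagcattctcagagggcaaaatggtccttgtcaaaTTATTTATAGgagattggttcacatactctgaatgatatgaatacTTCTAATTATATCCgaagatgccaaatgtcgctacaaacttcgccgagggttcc
Myh1, chr11:67199852-67200051, plus strand: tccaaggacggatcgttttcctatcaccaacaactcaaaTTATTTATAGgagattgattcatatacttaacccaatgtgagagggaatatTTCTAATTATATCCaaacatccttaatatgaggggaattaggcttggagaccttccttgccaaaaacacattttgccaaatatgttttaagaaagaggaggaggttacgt
Myh2, chr11:67170777-67171026, plus strand: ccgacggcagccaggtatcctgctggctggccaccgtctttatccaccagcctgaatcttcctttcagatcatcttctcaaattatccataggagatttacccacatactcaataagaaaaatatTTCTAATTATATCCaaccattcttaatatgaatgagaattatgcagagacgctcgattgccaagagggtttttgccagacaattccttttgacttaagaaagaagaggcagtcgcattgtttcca
Myh4, chr11:67237562-67237811, plus strand: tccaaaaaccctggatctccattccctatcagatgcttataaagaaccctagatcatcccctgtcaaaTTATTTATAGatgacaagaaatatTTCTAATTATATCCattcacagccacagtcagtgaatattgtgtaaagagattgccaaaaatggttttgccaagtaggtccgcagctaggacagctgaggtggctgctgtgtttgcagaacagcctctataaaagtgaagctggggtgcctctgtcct
The run TTCTAATTATATCC was found upstream of Myh8, Myh1, Myh2 and Myh4 and in 4 of 27025 mouse promoters in all, 0.0148%. It was picked because these genes share it, so that its rarity elsewhere is a description. The MEF2 consensus, written with ambiguous bases, was matched in Myh8, Myh1 and Myh4, against 3.01% of promoters, and not in Myh2 or Myh3. An E-box (CANNTG, the sequence that MyoD and myogenin bind) was matched upstream of Myh3, Myh8, Myh7, Myh7b and Myh4, but 66% of promoters hold one. Both strands were searched for every motif. The window of Myh4 overlaps an exon of Myhas, a long non-coding RNA of the same cluster.

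Embryonic myosin was abundant in KPH2 2 to KPH2 4 and in a single KP tumour. Myh3 was at 401, 647 and 109 CPM in KPH2 2, 3 and 4. In KP 5, 6, 7 and 8 it was at 5.87, 58.3, 0.445 and 1.58 CPM, the third of these from 3 counts, and KPH2 1 had 1.28 CPM. KPH2 2 to KPH2 4 were all above the KP tumours, KP 6 stood well above the other KP tumours, and KPH2 1 fell among them. KPH2 2 to KPH2 4 averaged 386 ± 270 CPM (SD, n = 3), against a KP average of 16.5 ± 27.9 CPM (SD, n = 4). The log2 fold change was 4.57 ± 1.37 (SE), with a Benjamini-Hochberg adjusted p of 0.137 over 14867 genes (edgeR, quasi-likelihood test). Over all 8 tumours it was 4.15 with an adjusted p of 0.314 in edgeR. Without KP 6 it was 7.09 with an adjusted p of 0.0440, and DESeq2 gave 0.0414 over 7 tumours and 0.144 over 8. Across its 17 alternatives the adjusted p of Myh3 ran from 0.0414 to 0.821.

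The perinatal chain Myh8 followed Myh3 from tumour to tumour. Its levels were 114, 102 and 10.7 CPM in KPH2 2, 3 and 4. In KP 5, 6, 7 and 8 they were 0.743, 15.7, 0.296 and 0.755 CPM, the third of these from 2 counts and so under the floor of 3, and in KPH2 1 0.559 CPM. KP 6 was above KPH2 4, so the groups overlapped, and the other KP tumours and KPH2 1 lay together below 1 CPM. The log2 fold change was 4.20 ± 1.29 (SE), with an adjusted p of 0.144 by edgeR over 7 tumours and 0.320 over 8. Without KP 6 it was 6.85, with an adjusted p of 0.0467 in edgeR, the lowest of its alternatives, which reached 0.875. Across the 8 tumours log2 CPM of Myh8 and Myh3 had a Pearson r of 0.98, and both were read from the same libraries.

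Among the slow chains, Myh7, the type I chain of slow fibres and of the heart ventricle, was the only abundant one. It was at 30.1, 45.2 and 5.64 CPM in KPH2 2, 3 and 4. In KP 5, 6, 7 and 8 it was at 0.223, 9.76, 1.19 and 14.2 CPM, and KPH2 1 had 1 count, 0.0799 CPM. KP 6 and KP 8 were above KPH2 4. The log2 fold change of 2.08 ± 1.10 (SE) had an adjusted p of 0.373 by edgeR over 7 tumours and 0.618 over 8.

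Myh7b, a slow-type chain of the heart and of extraocular muscle, stayed between 0.528 and 2.34 CPM in all 8 tumours. KPH2 3, the tumour with the most RNA of the other chains, had 1.10 CPM of it, within the KP range of 0.528 to 1.19 CPM. Its log2 fold change was 0.78 ± 0.44 (SE), with an adjusted p of 0.406 by edgeR. The cardiac chain Myh6 had 2 counts in KPH2 2, 1 in KPH2 3 and 0 in the 6 other tumours, at or under the 3 counts taken as a floor, and was not tested. Of 7 heart markers Nkx2-5 was at 0 in every tumour and Myl7 in 7 of 8, while Tnni3 was at 0.981 to 2.97 CPM throughout and Nppb reached 13.3 CPM in KP 8 and 6.93 CPM in KPH2 2. Those last 2 were tested, and 0 passed the adjusted p of 0.05 in edgeR, against 1.96% of tested genes, with log2 fold changes of -0.05 and -0.40. Neither had an unadjusted p under 0.05, against 17.8% of tested genes. Each of these slow chain genes carries a muscle microRNA in an intron, and the genes listed for Mir208a, Mir208b and Mir499 held 0, 1 and 0 counts in total.

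All 3 fast chains were detected in every tumour. Myh1, the 2X chain, was at 427, 493 and 91.6 CPM in KPH2 2, 3 and 4, and at 87.0 CPM in KPH2 1. KP 5, 6, 7 and 8 had 56.6, 53.8, 17.8 and 60.1 CPM. It was the only one of the 8 chains whose KPH2 levels, with KPH2 1 included, all exceeded the KP levels. The log2 fold change was 2.84 ± 0.60 (SE) over 7 tumours, with an adjusted p of 0.0592 by edgeR, and 2.54 over 8 tumours with an adjusted p of 0.169. Without KPH2 4 the adjusted p was 0.0241, and DESeq2 gave 1.16e-05 over 7 tumours and 0.00158 over 8. The highest adjusted p among the alternatives was 0.896, with a score of mature muscle genes as a covariate.

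Myh2, the 2A chain of oxidative fast fibres, was at 111, 177 and 24.3 CPM in KPH2 2, 3 and 4, and at 15.0 CPM in KPH2 1. KP 5, 6, 7 and 8 had 28.0, 7.22, 2.96 and 36.4 CPM, so that KP 5 and KP 8 were above KPH2 4. Its log2 fold change was 2.45 ± 0.87 (SE), with an adjusted p of 0.195 by edgeR. Myh4, the 2B chain of the fastest glycolytic fibres, was at 460, 925 and 193 CPM in KPH2 2, 3 and 4 and at 47.3 CPM in KPH2 1. KP 5, 6, 7 and 8 had 296, 46.1, 170 and 175 CPM. KP 5 was above KPH2 4, and KP 6 and KPH2 1 were the lowest. Its log2 fold change was 1.61 ± 0.64 (SE), with an adjusted p of 0.243 by edgeR, and 0.92 without KPH2 3. Leaving out that tumour also gave the lowest values for Myh2, 1.84, and Myh7, 1.49, and leaving out KP 8 the highest, 2.98 and 2.91.

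**Figure D1:**
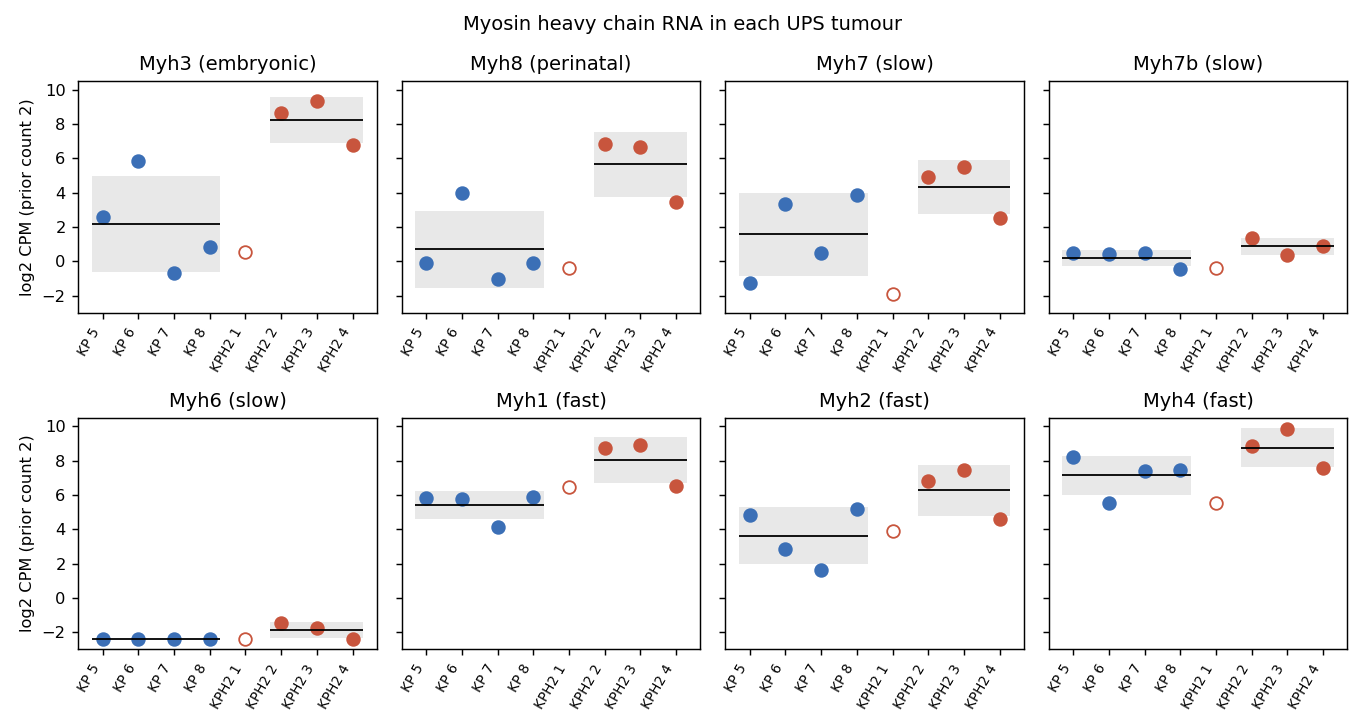
log2 CPM (prior count 2) of each heavy chain in each tumour, with KP in blue, KPH2 in red and KPH2 1 as an open circle; lines are the means of KP 5 to KP 8 and of KPH2 2 to KPH2 4, and grey bands are 1 SD. Myh3 is highest in KPH2 2 to KPH2 4 and then in KP 6, Myh8 is higher in KP 6 (15.7 CPM) than in KPH2 4 (10.7 CPM), Myh1 is higher in each KPH2 tumour than in every KP tumour, and Myh6 lies at its floor.

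With the edgeR test over 7 tumours, 0 of the 7 tested chains passed the adjusted p of 0.05, against 1.96% of all tested genes (1.24% called higher in KPH2 and 0.72% lower). At an unadjusted p under 0.05, 5 passed (Myh3, Myh8, Myh1, Myh2 and Myh4), against 17.8% of tested genes (8.5% with the KPH2 side higher). All 7 had a positive log2 fold change, where 48% of tested genes did, and their median was 2.45 against -0.02 over all genes. The 7 share fibres and libraries and are not independent. DESeq2 called Myh3 and Myh1 as higher, against 7.63% of the same genes (3.94% higher). The groups did not overlap, with the KPH2 side higher, in Myh3 and Myh1 over the 7 tumours, against 8.73% of tested genes (16.9% in either direction). Over all 8 tumours 0 chains passed in edgeR, against 0.00675% of genes, and 3 had an unadjusted p under 0.05, against 14.7%. Only Myh1 kept its groups apart over all 8, against 8.15% of genes in either direction.

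Genes of mature skeletal muscle were also most abundant in KPH2 2 and KPH2 3, but not in KP 6. All 19 genes of that list had positive log2 fold changes, against 48% of tested genes, with a median of 2.08. Of these 2 passed, against 1.24% of tested genes called higher (Eno3, muscle enolase, at 2.98 with an adjusted p of 0.00922, and Neb, nebulin, at 2.23 with an adjusted p of 0.0430, both by edgeR), and no gene of the list was at 0 in all tumours. In edgeR 18 of the 19 had an unadjusted p under 0.05, against 17.8% of tested genes. DESeq2 over 7 tumours called 15 of the 19, against 7.63% of tested genes. These genes share fibres and libraries and are not independent. Over all 8 tumours 0 of the 19 passed in edgeR, with adjusted p of 0.159 for Eno3 and 0.243 for Neb. Summed over the list, levels ran from 1621 to 2923 CPM in KP tumours and from 3957 to 17457 CPM in KPH2 2 to KPH2 4, with 1338 CPM in KPH2 1. In bulk RNA, more muscle cells and more RNA per muscle cell cannot be told apart. The mean log2 CPM of the 19 genes, called the muscle score here, was 5.02, 3.73, 3.80 and 4.66 in KP 5, 6, 7 and 8, 6.56, 7.22 and 5.01 in KPH2 2, 3 and 4, and 3.76 in KPH2 1. KPH2 4 and KP 5 were level in it, and KP 6 had the lowest score of all.

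The score holds genes of fast fibres (Tnnt3, Tnni2, Tnnc2, Atp2a1, Pvalb and Actn3) and no slow or embryonic counterpart of them, so that a closer run with the fast chains is partly built in. Myh4 had a Pearson r of 0.91 with it over the 8 tumours, Myh2 0.92 and Myh1 0.88, as against 0.77 for Myh3, 0.77 for Myh8, 0.65 for Myh7 and 0.47 for Myh7b. All these values share 8 libraries and the same scaling. KPH2 4 and KP 5 had equal scores but 109 and 5.87 CPM of Myh3, and in reverse order 193 and 296 CPM of Myh4. KP 6, KPH2 1 and KP 7 had scores of 3.73, 3.76 and 3.80. Among these Myh3 was at 58.3, 1.28 and 0.445 CPM, and Myh4 at 46.1, 47.3 and 170 CPM, so that both chains varied at like scores. With the score as a covariate, the log2 fold changes of Myh3 and Myh8 were 4.69 ± 3.32 (SE) and 4.10 ± 3.65 (SE), close to their values without it but with wide errors. Those of Myh1, Myh2, Myh4 and Myh7 went to 0.68 ± 0.71, -0.65 ± 0.70, -0.56 ± 0.635 and -0.21 ± 2.24 (SE). That of Myh7b went from 0.78 to 1.08 ± 0.76 (SE). In that fit 0 chains passed the adjusted p of 0.05 in edgeR, against 0.0202% of genes.

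**Figure D2:**
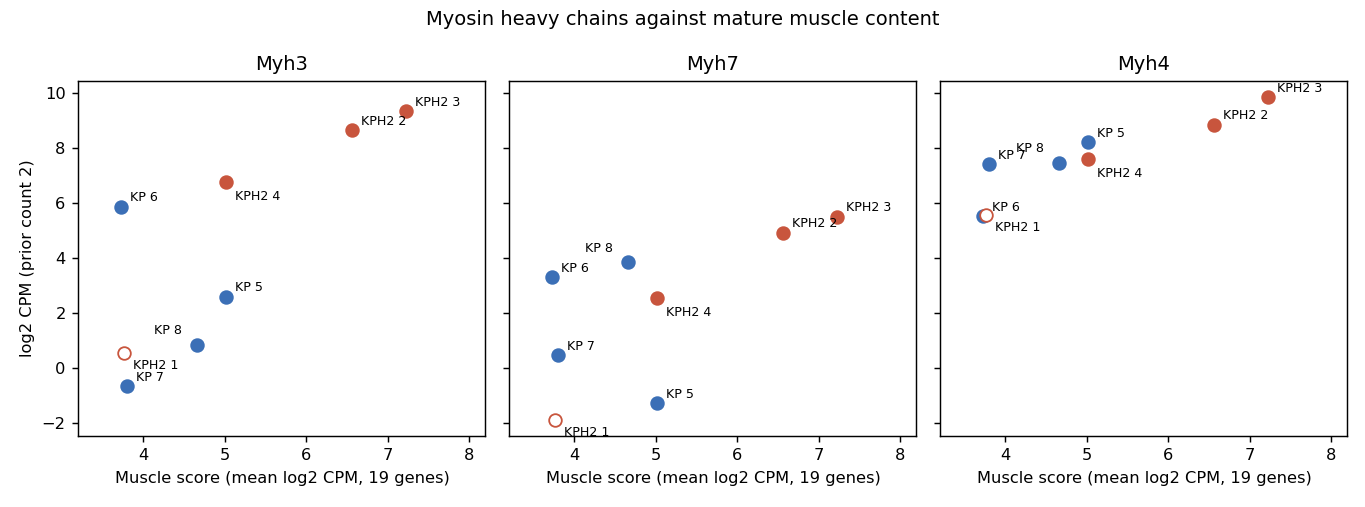
log2 CPM (prior count 2) of Myh3, Myh7 and Myh4 in each tumour against the muscle score, the mean log2 CPM of 19 mature muscle genes; KP is blue, KPH2 red, and KPH2 1 open. At scores of 5.02 and 5.01 Myh3 is 5.87 CPM in KP 5 and 109 CPM in KPH2 4, and at scores of 3.73 to 3.80 it runs from 0.445 CPM in KP 7 to 58.3 CPM in KP 6 while Myh4 runs from 46.1 CPM in KP 6 to 170 CPM in KP 7.

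Within a tumour the chains can be compared with one another as shares of their pool, counts per kilobase of exon summed over the 8 chains. This measure does not depend on library scaling or on the summed level of the chains. Pools held from 1310 to 23883 counts, and the exact Clopper-Pearson 95% interval of the embryonic and perinatal share was at most 5.25 points wide, counting error only. Myh3 and Myh8 together made 33.1%, 31.2% and 27.3% of the pool in KPH2 2, 3 and 4. They made 1.69%, 0.378% and 0.804% in KP 5, 7 and 8 and 1.19% in KPH2 1, but 38.4% in KP 6, the highest of all. The pools thus fell into 2 kinds, with KP 6 beside KPH2 2 to KPH2 4 and KPH2 1 beside the other KP tumours. The KP mean was 10.3% ± 18.7 (SD, n = 4). The KPH2 mean was 30.5% ± 2.94 (SD, n = 3) without KPH2 1 and 23.2% ± 14.9 (SD, n = 4) with it. The difference of 20.2 points was 29.6 without KP 6 and 12.9 with KPH2 1 included, and it was not tested.

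The embryonic chain alone was a near-constant part of the pool in KPH2 2 to KPH2 4. Myh3 made 25.9%, 27.0% and 24.9% of the pool there, while the whole pool was 1546, 2390 and 436 CPM, and Myh8 made 7.23%, 4.17% and 2.404%. In KP 6 the pool was only 192 CPM, yet Myh3 made 30.3% and Myh8 8.02% of it. The ratio of Myh3 to Myh4 per kilobase was 0.869, 0.698 and 0.564 in KPH2 2, 3 and 4 and 1.26 in KP 6, and from 0.00260 to 0.0270 in the other 4 tumours.

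Fast chains made up most of every pool. They were 98.0%, 98.4% and 94.3% in KP 5, 7 and 8, 98.4% in KPH2 1, 64.9%, 66.9% and 71.1% in KPH2 2, 3 and 4, and 56.2% in KP 6. Myh4 was the first chain in KP 5, 7 and 8, with 76.1%, 87.7% and 60.7%, and in KPH2 2, 3 and 4, with 29.8%, 38.7% and 44.2%. In KP 6 it made 24.1%, less than Myh3 or Myh1. KPH2 1 stood apart in its Myh1 share, 57.7%, against 9.28% to 28.4% in the other tumours. Its Myh4 share of 31.0% lay between those of KPH2 2 and KPH2 3. Slow chains made 0.352%, 5.43%, 1.18% and 4.87% of the pool in KP 5, 6, 7 and 8 and 2.01%, 1.85% and 1.61% in KPH2 2, 3 and 4, with 0.407% in KPH2 1. Their means over KP and over KPH2 2 to KPH2 4, 2.96% ± 2.56 (SD, n = 4) and 1.83% ± 0.203 (SD, n = 3), differed by less than the spread among KP tumours.

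**Figure D3:**
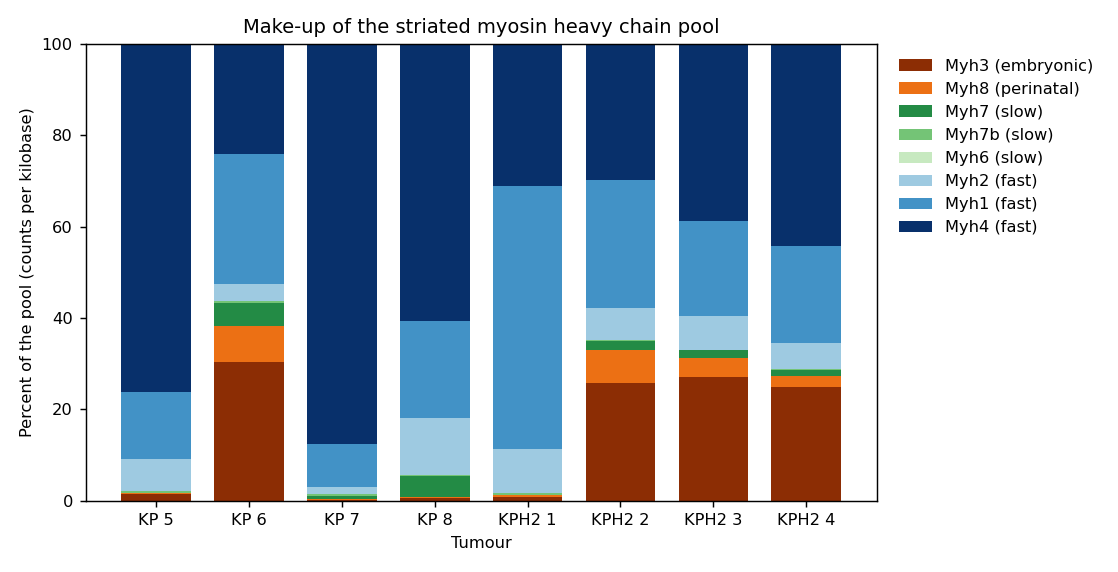
Share of each chain in the heavy chain pool of each tumour, in percent of counts per kilobase of exon summed over the 8 chains; browns are embryonic and perinatal, greens slow and blues fast. Myh3 and Myh8 make from 27.3% to 38.4% in KPH2 2, KPH2 3, KPH2 4 and KP 6 and under 2% in the other 4 tumours.

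Ordered by mean level per kilobase, the chains ran Myh4, Myh1, Myh2, Myh3, Myh7, Myh8, Myh7b and Myh6 in KP, with 28.6, 7.92, 3.07, 2.74, 1.004, 0.711, 0.164 and 0 CPM per kb. The place of Myh3 in KP rested on KP 6: without that tumour its mean was 0.436 CPM per kb, below the 0.824 of Myh7, and that of Myh8 was 0.0972, below the 0.157 of Myh7b. In KPH2 2 to KPH2 4 the order was Myh4, Myh3, Myh1, Myh2, Myh8, Myh7, Myh7b and Myh6, with 87.4, 63.9, 56.8, 17.1, 12.3, 4.27, 0.278 and 0.0153 CPM per kb. The ranges over tumours of neighbours in these orders overlapped, except Myh7 and Myh7b in KPH2 2 to KPH2 4, and Myh7b and Myh6 in both groups. Myh4 and Myh1 overlapped in KP, where KP 6 had 7.67 CPM per kb of Myh4 and 9.05 of Myh1.

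The genes whose log2 CPM ran most like Myh3 over the 8 tumours included Myod1, the myogenic master regulator (Pearson r 0.99), and Actc1, the actin of heart and of embryonic skeletal muscle (0.99). Myod1 was at 18.6, 36.8 and 9.13 CPM in KPH2 2, 3 and 4, at 0.965, 4.67, 0.148 and 0.377 CPM in KP 5, 6, 7 and 8, while KPH2 1 had 0.160 CPM. As with Myh3, KP 6 was the highest KP tumour. For Myh4 the 3 were Tfeb, a lysosomal regulator (0.98), Smarcd1, a chromatin remodelling subunit (0.98), and Myo18b, a sarcomere assembly myosin (0.98). For Myh7 they were Acsl1, a fatty acid activating enzyme (0.98), Fam54b (0.96) and Sema6a, a guidance ligand (0.95). These are the highest correlations over all tested genes and the same 8 libraries, and are given as a description.

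Markers of newly formed or denervated fibres had positive fold changes, of which few passed the test. Of 13 genes 12 were tested, all with a positive log2 fold change and with a median of 3.77, against -0.02 over all genes, and 9 had groups apart with the KPH2 side higher, against 8.73% of tested genes. Those that passed, 2 of 12 against 1.24% of all tested genes, were Myf5, an early myogenic factor, which rose by 5.59 ± 1.04 (SE, adjusted p = 0.0418), and Myf6, a late one, which rose by 2.51 ± 0.36 (SE, adjusted p = 0.0212), both by edgeR on the log2 scale. Myf5 was at 47.9, 15.9 and 18.4 CPM in KPH2 2, 3 and 4, and at 0.149, 2.41, 0 and 0.0755 CPM in KP 5, 6, 7 and 8, with 0 counts in KPH2 1. Its levels in KP 5, KP 7 and KP 8 were under the floor of 3 counts, so the size of its fold change is uncertain. The gene met the low-count filter through KPH2 2 to KPH2 4 and KP 6. Myf6 was at 8.01, 7.91 and 4.62 CPM in KPH2 2, 3 and 4, at 0.741 to 1.51 CPM in KP and at 1.92 CPM in KPH2 1. Chrng, the fetal subunit of the acetylcholine receptor, had a log2 fold change of 4.05 with an adjusted p of 0.0741 by edgeR. Cdh15, the cadherin of satellite cells and myoblasts, had the same adjusted p, with levels of 33.5, 77.1 and 34.0 CPM in KPH2 2, 3 and 4 and of 0.148 to 8.49 CPM in KP, KP 6 the highest. The list's 2 calls became 8 without KP 6, where 130 genes in all were called, 0 without KP 7 or KPH2 2, 1 without KP 5, KP 8, KPH2 3 or KPH2 4, and 0 over all 8 tumours. With the muscle score as a covariate the median was 3.86, with 0 calls.

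Partners of the heavy chain in the thick filament also had positive fold changes. Of 17 genes 16 were tested, 15 with a positive log2 fold change, and the median was 2.02. Those that passed, 2 of 16 against 1.24% of tested genes called higher, were Myl4, the essential light chain of embryonic and atrial muscle, which rose by 3.63 ± 0.70 (SE, adjusted p = 0.0480), and Smyd1, a methyltransferase that helps to assemble myosin, which rose by 3.01 ± 0.56 (SE, adjusted p = 0.0418), both by edgeR on the log2 scale. Myl4 was at 79.7, 85.2 and 22.8 CPM in KPH2 2, 3 and 4, at 3.94, 12.2, 1.48 and 3.02 CPM in KP 5, 6, 7 and 8, while KPH2 1 had 1.52 CPM, and so KP 6 again was the highest KP tumour. Smyd1 was at 23.9, 36.2 and 6.76 CPM in KPH2 2, 3 and 4, at 1.71 to 4.08 CPM in KP and at 1.20 CPM in KPH2 1. Myom3, an M-band protein, and Myl1, the fast essential light chain, stood at 2.90 and 2.26 on the log2 scale, adjusted p of 0.0621 and 0.0646 by edgeR. The 2 calls became 9 without KPH2 4, where 153 genes in all were called, and 12 with DESeq2, which called 7.63% of tested genes. They were 0 without KP 5, KP 7, KP 8, KPH2 2 or KPH2 3, and 0 over all 8 tumours. With the muscle score as a covariate the median was 0.30.

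**Figure D4:**
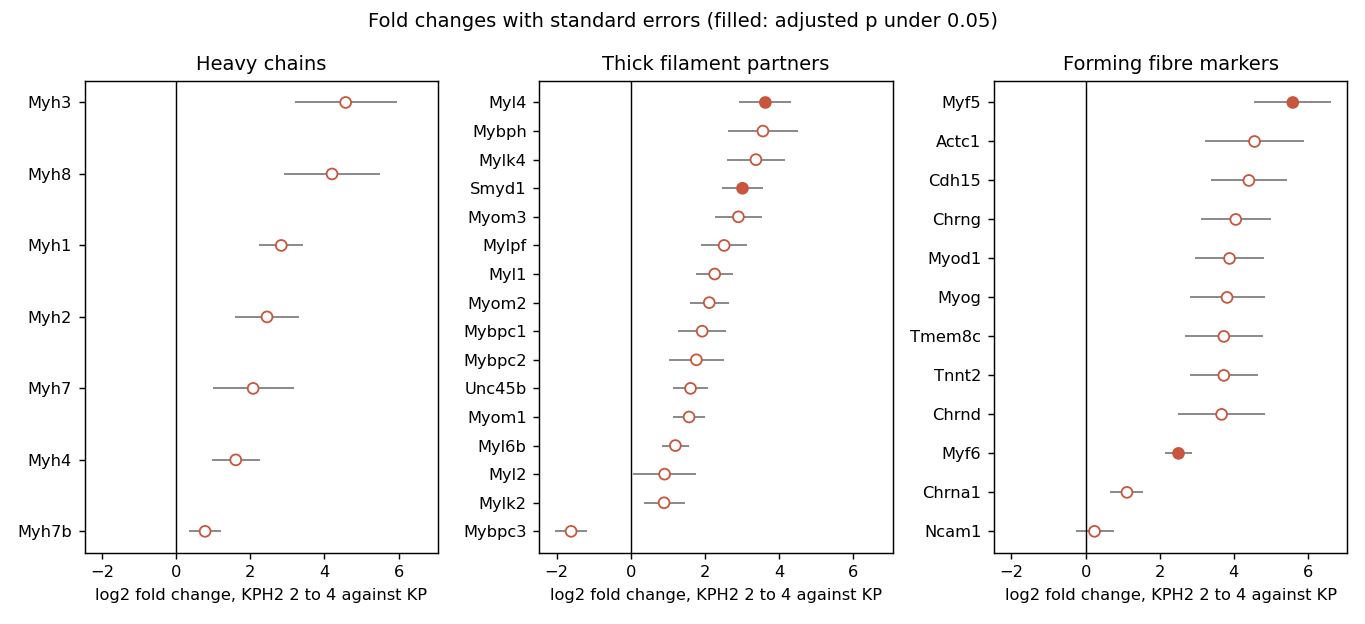
log2 fold changes of KPH2 2 to KPH2 4 against KP with standard errors (edgeR, 7 tumours) for the 7 tested heavy chains, 16 thick filament partners and 12 forming fibre markers; filled circles passed an adjusted p of 0.05. Among the filled points are Myl4 at 3.63 and Myf5 at 5.59, and Mybpc3, which did not pass, is the only point below 0.

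Regulators of fibre type were divided. Of 16 genes 14 were tested, 2 passed as higher, against 1.24% of tested genes, and 1 as lower, against 0.72%, and the median log2 fold change was 0.45. Eya1, the coactivator that acts with Six4 on fast fibre genes, was at 34.8, 29.1 and 35.7 CPM in KPH2 2, 3 and 4, at 0.891, 1.27, 0.296 and 1.74 CPM in KP 5, 6, 7 and 8, while KPH2 1 had 4.24 CPM. It rose by 4.91 ± 0.40 (SE, adjusted p = 0.00514, edgeR) on the log2 scale, and unlike Myh3 it was low in KP 6. Six4, one of its partners, rose by 1.09 ± 0.22 (SE, adjusted p = 0.0499, edgeR). Its KP mean was 43.3 ± 11.3 CPM (SD, n = 4) and its mean in KPH2 2 to KPH2 4 was 92.2 ± 7.42 CPM (SD, n = 3). Tbx15, a factor of glycolytic fibres and of limb mesenchyme, fell by 1.96 ± 0.29 (SE, adjusted p = 0.0228, edgeR), from a KP mean of 104 ± 36.4 CPM (SD, n = 4) to 26.6 ± 5.14 CPM (SD, n = 3), and was at 131 CPM in KPH2 1. Prox1, a factor of slow fibres, had a log2 fold change of 3.08 with an adjusted p of 0.0794 by edgeR. The 3 calls became 1 without KP 7, KPH2 2 or KPH2 4, and 0 over all 8 tumours, where Eya1 had an adjusted p of 0.100 and Tbx15 of 0.469.

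Of the 6 other class II heavy chains 4 were tested, with a median log2 fold change of 0.26. The non-muscle chains Myh9 and Myh10, the myosins of stress fibres, had log2 fold changes of 0.39 ± 0.24 (SE, adjusted p = 0.463) and 0.14 ± 0.32 (SE, adjusted p = 0.873) by edgeR. Myh14, the third non-muscle chain, averaged 0.595 ± 0.326 CPM (SD, n = 4) over KP and 3.50 ± 1.05 CPM (SD, n = 3) over KPH2 2 to KPH2 4. It rose by 2.45 on the log2 scale, with an adjusted p of 0.0482 by edgeR, the 1 call among the 4, against 1.24% of tested genes called higher. Its KP levels were 0.891, 0.141, 0.593 and 0.755 CPM in KP 5, 6, 7 and 8, with KP 6 under the floor of 3 counts. Myh14 met the low-count filter only through KPH2 2 to KPH2 4, so its call is given as a description. The number of calls in this list was 1 without KP 5 and 0 without any other single tumour or over all 8 tumours. The smooth muscle chain Myh11 had a log2 fold change of -1.27 ± 0.27 (SE) with an adjusted p of 0.0588 by edgeR, and all KPH2 tumours, KPH2 1 at 4.56 CPM included, were below the KP range of 7.85 to 11.9 CPM.

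Of the 6 smooth muscle markers Cnn1, calponin, fell by 3.69 ± 0.73 on the log2 scale (SE, adjusted p = 0.0491, edgeR), the 1 call among the 6, against 0.72% of tested genes called lower, and the list median was -0.21. Of the others Actg2, a smooth muscle actin, had a log2 fold change of 2.96 ± 1.04 (SE, adjusted p = 0.195, edgeR), while Tagln and Acta2 were at -1.01 and -0.24. Summed levels of that list were 221 to 672 CPM in KP, 170 to 621 CPM in KPH2 2 to KPH2 4 and 95.7 CPM in KPH2 1. Among the 7 mesenchymal markers Pdgfra fell by 2.02 ± 0.27 (SE, adjusted p = 0.0183, edgeR), the 1 call among the 7, against the same 0.72%, and the list median was -0.54. Over all 8 tumours neither call held, with adjusted p of 0.102 for Cnn1 and 0.160 for Pdgfra in edgeR. The part of these cell types in the heavy chain levels was not tested.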

How the data were processed

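Stranded libraries of 8 FFPE tumours were made after removal of ribosomal RNA. The authors aligned reads to GRCm38 with STAR 2.4 and deposited raw counts of unique alignments per RefSeq gene from HTSeq 0.6.1; the strand setting is not given in the sources used here. A second table that the authors deposited holds rlog values (log2, DESeq2), used as an alternative for 7 tumours. All sample columns were mapped (0 left out).

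Testing used edgeR 4.0.16 under R 4.3.3, with TMM, the low-count filter (minimum count 10, total 15), robust dispersions and the quasi-likelihood test over KP 5 to KP 8 and KPH2 2 to KPH2 4, with Benjamini-Hochberg adjustment over 14867 genes. Printed CPM use TMM over all 8 tumours, so fold changes can differ slightly from ratios of printed means. log2 CPM used a prior count of 2. Exon lengths and transcript sequences came from GENCODE transcripts on GRCm38 that were matched to RefSeq accessions. Coding sequences were aligned with MAFFT 7.526. Tests were tried on simulated data.

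Named genes were the 8 chains, genes of fixed lists past the adjusted p of 0.05 or among the 4 smallest p, the 3 genes most correlated with Myh3, Myh7 and Myh4, Epas1, and marker genes at 0. Mymk was matched to Tmem8c. Mybpc3 was named after its value was seen. Some items of the genotypes and of these rules are not reported here. The chains and lists were chosen with earlier results of these data known. Each library is a separate tumour; p-values measure spread between tumours. Alternatives were all 8 tumours, other normalizations and filters, the muscle score as a covariate, non-robust edgeR, DESeq2 1.42.0, limma 3.58.1 on rlog values, and leaving out each tumour. For shares they were raw counts, pooled counts and a pool without Myh7b and Myh6. DESeq2 over 8 tumours, and lengths in windows found in no other gene, were added after seeing the data.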

Additional observations from a re-analysis of the deposited data

Results flagged for a closer look

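Within the 4 KP tumours, 4 values stood far from the other 3 of their group by Dixon's gap ratio, over 15 groups of single chains and 6 groups of shares. The threshold is Dixon's 95% critical value, which chance passes in about 5% of groups.

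The embryonic and perinatal share of the heavy chain pool was 38.36% in KP 6, with a gap of 0.966 of the range, and the fast share there was 56.21%, with a gap of 0.903. These shares are parts of one pool and are not separate observations. Myh1 was lowest in KP 7, at 4.169 on the log2 CPM scale from 120 counts, with a gap of 0.909. Myh7b was lowest in KP 8, at -0.472 on the log2 CPM scale from 7 counts, with a gap of 0.936.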

How the results depend on the processing

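The log2 fold changes of the 7 tested chains were positive under every alternative that gave them a value (with a mean count of 50 Myh7b was not tested) but the muscle score as a covariate, where 4 were positive and Myh7, Myh2 and Myh4 were at -0.21, -0.65 and -0.56. With the alternatives in the order all 8 tumours, muscle score, DESeq2 and DESeq2 over all 8 tumours, the 292 genes called became 1, 3, 1175 and 648. The genes called were 338 with no filter, 215 with a mean count of 50 and 322 with limma on rlog values. The 0 chains called became 2 with DESeq2, 1 with limma on rlog values and 1 with DESeq2 over all 8 tumours. The 2 thick filament partners became 0, 0, 12 and 4, and 1 with no filter, with a mean count of 50 or with rlog values. The 2 forming fibre markers became 0, 0, 7 and 1, 1 with no filter or a mean count of 50, and 8 with rlog values. The 3 regulators became 0, 0 and 5 in the first 3. The 1 other class II chain became 0, 0 and 2, 0 with a mean count of 50 and 2 with rlog values. Leaving out each tumour gave 55 to 349 genes, 0 to 2 heavy chains, 0 to 9 thick filament partners, 0 to 1 other class II chains, 1 to 3 regulators and 0 to 8 forming fibre markers.

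DESeq2 called 1135 of the genes that edgeR tested. No paired analysis was possible because no replicate number occurs in both groups. With the embryonic and perinatal share, leaving out each tumour gave differences of 16.9 to 29.6 points, and with the slow share -1.999 to -0.306 points. Counts of 3 or fewer limit Myh6, Myh7 in KPH2 1 and KP 5, and Myh3 and Myh8 in KP 7. They also limit Myf5 in KP 5, KP 7, KP 8 and KPH2 1. With 4 tumours against 3 the errors of Myh3 and Myh8 are over 1 log2 unit.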
